A study of Homo sapiens with 9 samples.

Results

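The transcripts described here encode the TGF-β ligands TGFB1, TGFB2 and TGFB3, their signalling receptors TGFBR1 and TGFBR2, the co-receptors TGFBR3 and ENG, and LRRC32, a cell-surface anchor for latent ligand. The genes were taken by symbol and are 8 of the 58233 gene IDs measured. RNA was sequenced from TC32, an established Ewing sarcoma cell line grown in medium with fetal bovine serum. There were 9 libraries of polyadenylated RNA in 3 groups of 3. Vehicle cells received PBS and then DMSO. Wnt3a cells received Wnt3a for 28 h, the last 24 h of it with DMSO. Inhibitor cells received Wnt3a for 28 h and the TGF-β receptor inhibitor SB-505124 for the last 24 h. No group received SB-505124 without Wnt3a, the sources used here give no doses, and all data come from 1 cell line. Whether replicates were separate cultures is not stated in the labels, and p-values therefore reflect a spread between libraries that may be technical only.

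TGF-β ligands are secreted in a latent form, held by their own propeptide, and must be released before they can bind. Active ligand binds TGFBR2, which recruits and phosphorylates TGFBR1, also called ALK5, and TGFBR1 then phosphorylates SMAD2 and SMAD3, which enter the nucleus with SMAD4. TGFBR3, or betaglycan, presents ligand to TGFBR2 and matters most for TGFB2, which binds TGFBR2 poorly by itself. ENG, or endoglin, is a co-receptor best known from endothelial cells, and LRRC32, or GARP, tethers latent ligand on regulatory T cells and platelets. SB-505124 blocks the kinases of TGFBR1 and of the related activin and nodal receptors ACVR1B and ACVR1C, so transcript levels of the receptors do not check its action.

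All 8 genes are annotated as protein coding in GENCODE 29 on GRCh38, and each value sums the transcripts of its gene. TGFB1 (ENSG00000105329.9) lies at chr19:41301587-41353911 on the minus strand, TGFB2 (ENSG00000092969.11) at chr1:218346235-218444619 on the plus strand and TGFB3 (ENSG00000119699.7) at chr14:75958099-75982991 on the minus strand. TGFBR1 (ENSG00000106799.12) lies at chr9:99104038-99154192 and TGFBR2 (ENSG00000163513.17) at chr3:30606502-30694142, both on the plus strand. TGFBR3 (ENSG00000069702.10) lies at chr1:91680343-91906335, ENG (ENSG00000106991.13) at chr9:127815012-127854756 and LRRC32 (ENSG00000137507.11) at chr11:76657524-76670747, all on the minus strand.

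TGFB2 passed the test in all 3 comparisons, and the sequence before its start is therefore shown. The window holds the 250 bases before the RefSeq start, chr1:218345086-218345335 of GRCh38.p14, on the plus strand, 5′ to 3′.

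TGFB2: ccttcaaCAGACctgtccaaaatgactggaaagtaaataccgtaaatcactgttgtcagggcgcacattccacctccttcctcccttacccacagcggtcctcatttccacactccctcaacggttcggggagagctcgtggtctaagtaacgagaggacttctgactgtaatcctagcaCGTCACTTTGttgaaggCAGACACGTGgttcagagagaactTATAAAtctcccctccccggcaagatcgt

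Capitals mark matches to 5 short motifs, searched on both strands. The SMAD box CAGAC begins 243 and 53 bases before the start. The letters CGTCA, the reverse complement of TGACG, the core of the cyclic AMP response element, begin 70 bases before the start and adjoin CTTTG, the core of the TCF/LEF motif, 65 bases before it. The E-box CACGTG at 49 bases before the start shares its first base with the nearer SMAD box, and TATAAA begins at 29 bases. The AP-1 motif TGANTCA was not matched in the window. The marked motifs are not particular to TGFB2. CTTTG was also matched before a RefSeq start of TGFB1, TGFB3, TGFBR1, TGFBR2, TGFBR3 and ENG. CAGAC and TGACG were also matched for TGFB3 and TGFBR1, and CACGTG and TATAAA for TGFB3. Short motifs are common: among 35097 RefSeq windows of the same length, CTTTG was present in 42.1%, CAGAC in 38.0%, TGACG in 21.2%, TATAAA in 10.7%, TGANTCA in 6.57% and CACGTG in 6.34%. Of the window, 161 bases are also exon of TGFB2-AS1, a noncoding gene on the other strand with 6 to 31 counts per library. The GENCODE 29 start of TGFB2 lies 899 bases downstream of the RefSeq start.

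Total counts were 28844348 to 42976799 per library. The factors that scale library sizes (TMM) ran from 0.876 to 0.914 with the inhibitor and from 1.02 to 1.10 elsewhere, and 23196 to 23250 genes had a count there against 25128 to 26802. RSEM's estimated length was under 0.8 of the gene's median over libraries for 3.92% to 5.16% of 9949 genes with the inhibitor and for 0.31% to 0.84% elsewhere, which enters TPM. Inhibitor replicate 1 stood apart from its partners, with a chi-square of the counts, divided by its degrees of freedom, of 62.09 and 64.16, against 9.78 between these, and vehicle replicate 2 with 40.55 and 37.09 against 7.19. In the Wnt3a group replicate 3 had 36.27 and 40.57 with its partners, against 21.48 between these. For the 7 genes tested, values without a library are given where a call depends on it. All 14 Ewing sarcoma markers examined, among them CD99, NR0B1 and NKX2-2, exceeded 1 CPM (count per 1e6 counts of a library, TMM-scaled) in every library. Their levels differed between groups. CD99 averaged 1140, 931 and 976 CPM in vehicle, Wnt3a and inhibitor libraries, NR0B1 387, 288 and 200 CPM and NKX2-2 99.7, 72.3 and 36.1 CPM. By edgeR, 3 of the 14 rose and 6 fell for inhibitor against vehicle, where 25% of all genes rose and 24.8% fell. The scaling matters for what follows: without TMM factors the median log2 change of all genes was -0.306 for inhibitor against Wnt3a and -0.267 for inhibitor against vehicle, compared with -0.057 and -0.04 with them, and the share of called genes that were higher fell from 48.6% to 30.6% and from 50.2% to 33.6%. Levels of 1 gene across libraries are given in CPM. Levels of different genes are compared only in TPM, the authors' transcript measure, which is scaled by length.

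In vehicle cells TGFB1 was the most abundant of the 8 transcripts, at 114 ± 9.95 TPM (SD, n = 3 here and for each group below). TGFB2 followed at 44.0 ± 1.57 TPM, then ENG at 31.04 ± 2.95, TGFB3 at 15.8 ± 0.385, TGFBR1 at 3.30 ± 0.225, TGFBR2 at 2.65 ± 0.0815 and TGFBR3 at 2.17 ± 0.144 TPM. No 2 neighbours in this order overlapped between libraries. With Wnt3a the order of means was the same, but TGFB1 at 97.6 ± 8.52 TPM and TGFB2 at 90.2 ± 17.9 TPM overlapped. With the inhibitor TGFB2 came first at 158 ± 2.82 TPM, above TGFB1 at 68.0 ± 13.1 TPM in every library, and the 3 receptor transcripts TGFBR3, TGFBR2 and TGFBR1 lay at 2.81 ± 0.601, 1.93 ± 0.568 and 1.71 ± 0.507 TPM with overlapping neighbours. LRRC32 was last in every group.

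**Figure D1:**
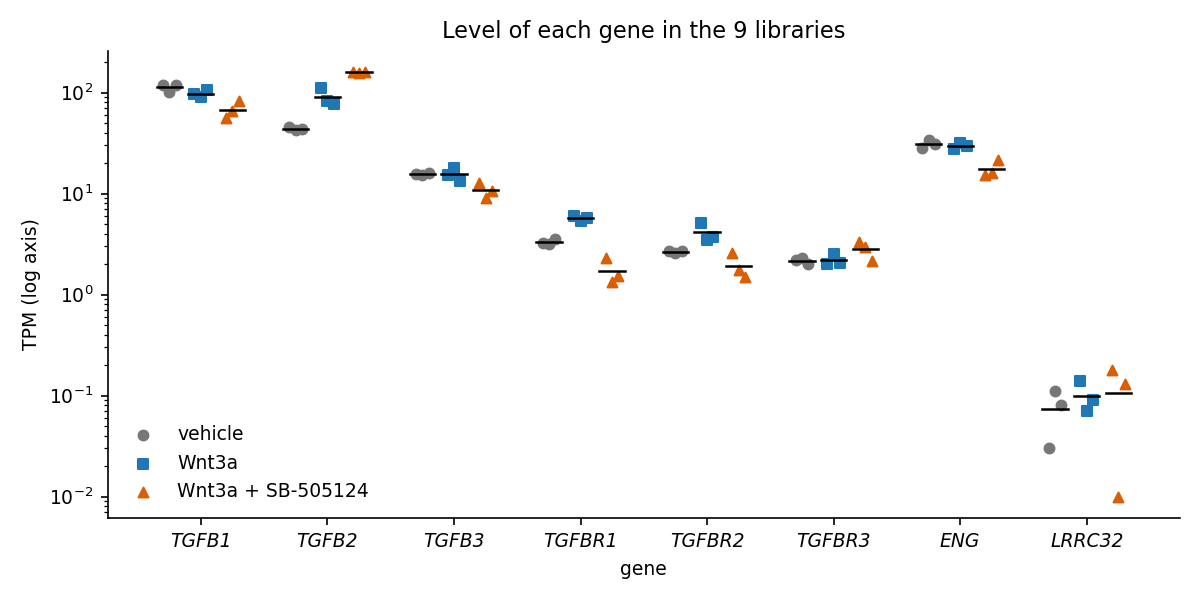
Transcript level of each of the 8 genes in TPM on a log axis, 1 point per library, with circles for vehicle, squares for Wnt3a, triangles for Wnt3a with SB-505124 and a bar at each group's mean. TGFB2 steps up from 44.0 to 90.2 to 158 TPM without overlap, TGFBR1 is highest with Wnt3a and lowest with the inhibitor, and LRRC32 lies at or below 0.18 TPM.

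Among the ligands, TGFB2 rose with Wnt3a and was higher again with the inhibitor. Its level was 84.8, 76.6 and 76.2 CPM in vehicle replicates 1 to 3, 182.6, 130.6 and 140.1 CPM with Wnt3a, and 336, 334.2 and 332.3 CPM with the inhibitor. The 3 groups were fully separate, the inhibitor libraries lay within 4 CPM of each other, and Wnt3a replicate 1 stood above its 2 partners. Wnt3a against vehicle gave a log2 fold change of 0.93 (SE 0.123, 1.91-fold, edgeR adjusted p = 0.0105). It was the only one of 7 genes tested to pass, where 0.419% of all 17880 genes tested passed, 0.397% as higher and 0.0224% as lower. Inhibitor against Wnt3a gave 1.145 (SE 0.123, 2.21-fold, edgeR adjusted p = 5.76e-05), in a comparison where 50.4% of genes passed (24.5% higher and 25.9% lower), and inhibitor against vehicle gave 2.08 (SE 0.127, 4.22-fold, edgeR adjusted p = 3.24e-06), where 49.7% passed (25% higher and 24.8% lower). Among all genes tested these log2 changes stood at the 97.3rd, 93.5th and 98.3rd percentiles. The call for Wnt3a against vehicle was lost without vehicle replicate 3 (log2 0.905, edgeR adjusted p = 0.082) and kept under the 20 other alternatives run, the weakest without vehicle replicate 2 (edgeR adjusted p = 0.04996). In bulk RNA, a change in the share of cells that carry a transcript and a change in its level per cell cannot be told apart.

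Reads of TGFB2 are partly shared with TGFB2-OT1, a noncoding gene on the same strand that covers 1371 of its 5151 exon bases. TGFB2-OT1 was at 4.75 ± 2.02 CPM in vehicle, 7.95 ± 2.73 CPM with Wnt3a and 41.5 ± 6.94 CPM with the inhibitor, which is 5.93%, 5.23% and 12.3% of the TGFB2 counts. How RSEM divided reads between the 2 genes cannot be told from gene totals. With both genes' counts added together, an alternative chosen after seeing the data, the log2 fold changes were 0.92, 1.24 and 2.16 (edgeR adjusted p = 0.0144, 4.65e-05 and 3.31e-06), so the call and the direction stayed.

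TGFB1, the founding member of the family, did not pass the test on counts in any comparison. Its level was 127.9, 111.8 and 135.1 CPM in vehicle, 70.5, 90.4 and 125.3 CPM with Wnt3a, and 46.8, 98.4 and 121.9 CPM with the inhibitor. The groups overlapped, and replicate 1 was the lowest library of both treated groups. The log2 fold change was -0.39 for Wnt3a against vehicle (SE 0.305, edgeR adjusted p = 0.864), -0.099 for inhibitor against Wnt3a (SE 0.305, edgeR adjusted p = 0.806) and -0.49 for inhibitor against vehicle (SE 0.306, edgeR adjusted p = 0.211).

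Those low counts of TGFB1 moved with the transcript length that RSEM estimated for it. The length was 1143.1 bases in Wnt3a replicate 1 and 1019.25 bases in inhibitor replicate 1, against 1582.63 to 1845.33 bases in the other 7 libraries. Over 9949 genes, the ratio of length to the gene's median put TGFB1 at the 0.1st percentile in the first library and the 0.8th in the second. The annotation holds a full-length TGFB1 transcript of 2769 bases and 3 short ones of 392, 399 and 559 bases, and the estimated length is their mean weighted by estimated abundance. TPM, which is divided by that length, was 119.77, 102.12 and 118.9 in vehicle, 96.75, 89.53 and 106.51 in Wnt3a libraries, and 56.66, 65.14 and 82.27 with the inhibitor. On this scale the inhibitor libraries lay below all others, and limma-trend on log2(TPM + 1) gave -0.53 for inhibitor against Wnt3a (adjusted p = 0.0108) and -0.74 for inhibitor against vehicle (adjusted p = 0.00195), where the medians of all genes were -0.228 and -0.165. Without Wnt3a replicate 1 and inhibitor replicate 1 the count-based change for inhibitor against Wnt3a was 0.031 (edgeR adjusted p = 0.899), so the direction for TGFB1 depended on the libraries kept. Inhibitor against vehicle also passed with an offset for effective length (-0.495, edgeR adjusted p = 0.0183) and with all genes of at least 1 count (-0.503, edgeR adjusted p = 0.041). Part of TGFB1, 215 of its 3238 exon bases, is also exon of HNRNPUL1 on the other strand. HNRNPUL1 had 13317.83 to 23714.85 counts per library, beside 1233.17 to 5503.15 for TGFB1. Whether counting used strand is not given in the sources read here, and the part of HNRNPUL1 reads in the TGFB1 values was not tested.

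**Figure D2:**
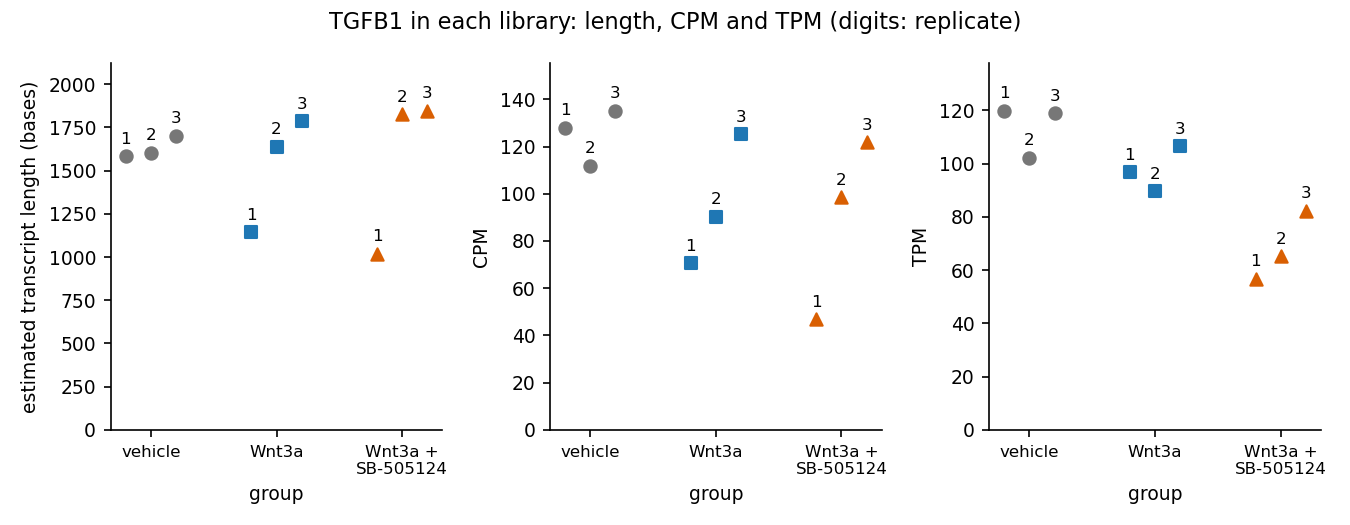
TGFB1 in each library: estimated transcript length in bases, level in CPM and level in TPM, with the replicate number at each point. Replicate 1 of both Wnt3a groups is short (1143.1 and 1019.25 bases) and lowest of its group in CPM, while in TPM the 3 inhibitor libraries (56.66 to 82.27) lie below the other 6.

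TGFB3, the third isoform and the least abundant ligand here, did not pass on counts either. It was at 21.3, 19.2 and 20.0 CPM in vehicle, 17.4, 19.9 and 17.2 CPM with Wnt3a and 20.6, 14.0 and 16.9 CPM with the inhibitor. All 3 groups overlapped. The log2 fold change was -0.15 (SE 0.146, edgeR adjusted p = 0.893) for Wnt3a against vehicle, -0.08 (SE 0.147, edgeR adjusted p = 0.673) for inhibitor against Wnt3a and -0.23 (SE 0.147, edgeR adjusted p = 0.214) for inhibitor against vehicle. In TPM it was 10.8 ± 1.83 with the inhibitor, below 15.5 ± 2.22 with Wnt3a and 15.8 ± 0.385 in vehicle in every library. With limma-trend on log2(TPM + 1) it passed for inhibitor against Wnt3a (-0.488, adjusted p = 0.0213) and against vehicle (-0.52, adjusted p = 0.0167). On that scale the medians of all genes were -0.228 and -0.165. Inhibitor against vehicle also passed with library totals alone (-0.456, edgeR adjusted p = 0.0364) and without inhibitor replicate 1 (-0.382, edgeR adjusted p = 0.0321), and inhibitor against Wnt3a turned to 0.049 without inhibitor replicate 2 (edgeR adjusted p = 0.8).

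The makeup of the ligand transcripts shifted towards TGFB2. Its share of the summed TPM of the 3 ligands was 25.2%, 26.6% and 24.5% in vehicle, 49.6%, 43.8% and 39.0% in Wnt3a libraries, and 69.7%, 67.6% and 63.3% with the inhibitor. The share of TGFB1 ran the other way, from 65.5% ± 1.45 in vehicle to 48.2% ± 5.50 with Wnt3a and 28.6% ± 3.90 with the inhibitor. TGFB3 held 9.12% ± 0.467, 7.67% ± 1.42 and 4.56% ± 0.860. For TGFB1 and TGFB2 no group overlapped another, and each difference had an exact 2-sided permutation p of 0.1, the smallest that 3 against 3 libraries allow (0.1125 after adjustment over 9 tests). The shares of TGFB2 differed by 18.7 percentage points for Wnt3a against vehicle and 22.7 for inhibitor against Wnt3a. The summed TPM of the 3 ligands was 160.06 to 181.18 in vehicle, 190.85 to 222.58 with Wnt3a and 229.1 to 252.93 with the inhibitor. With 1 fixed length per gene, chosen as an alternative after seeing the data, the TGFB2 shares were 25.9% ± 1.79, 46.3% ± 9.73 and 67.4% ± 8.22 and still did not overlap, whereas the TGFB1 shares of inhibitor and Wnt3a libraries did.

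**Figure D3:**
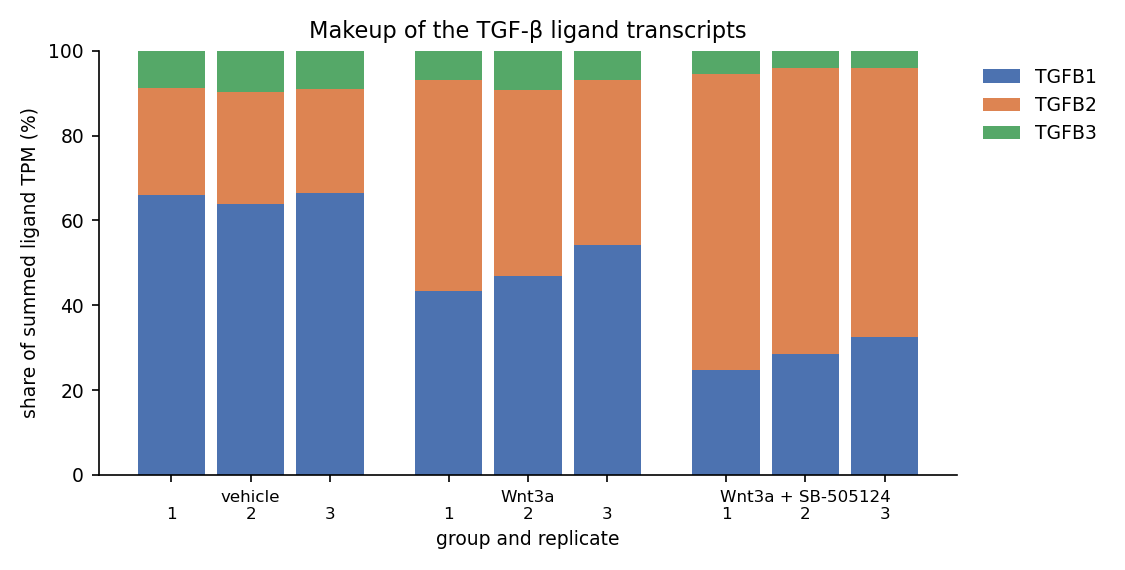
Share of each ligand gene in the summed TPM of TGFB1, TGFB2 and TGFB3, 1 stacked bar per library, grouped by treatment. The TGFB2 part grows from 24.5% to 26.6% in vehicle to 39.0% to 49.6% with Wnt3a and 63.3% to 69.7% with the inhibitor.

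TGFBR1 and TGFBR2 fell with the inhibitor against Wnt3a. TGFBR1, the type I receptor kinase and a target of SB-505124, was at 14.2, 13.4 and 14.0 CPM in vehicle, 24, 20.8 and 23.9 CPM with Wnt3a, and 12.03, 6.6 and 7.77 CPM with the inhibitor. The groups did not overlap: Wnt3a libraries were the highest and inhibitor libraries the lowest, with inhibitor replicate 1 nearest to vehicle. It fell with the inhibitor against Wnt3a by 1.38 on the log2 scale (SE 0.199, 2.61-fold lower, edgeR adjusted p = 0.000318). It was also lower against vehicle (log2 -0.66, SE 0.198, edgeR adjusted p = 0.0191), a call lost without vehicle replicate 1, inhibitor replicate 2 or inhibitor replicate 3 (edgeR adjusted p = 0.0518, 0.0644 and 0.0677). For Wnt3a against vehicle the log2 fold change was 0.73 (SE 0.195, 1.65-fold, edgeR adjusted p = 0.242), which did not pass. That difference passed with DESeq2 (adjusted p = 0.0368), with all genes of at least 1 count (edgeR adjusted p = 0.0334), with only the 2 groups compared (edgeR adjusted p = 0.0464) and without inhibitor replicate 1 (edgeR adjusted p = 0.0176).

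TGFBR2, the type II receptor that binds ligand, was at 8.57, 8.21 and 8.497 CPM in vehicle, 15.6, 10.1 and 11.6 CPM with Wnt3a, and 9.98, 6.81 and 5.56 CPM with the inhibitor. Wnt3a libraries lay above both other groups, which overlapped each other. TGFBR2 fell with the inhibitor against Wnt3a by 0.74 on the log2 scale (SE 0.23, 1.67-fold lower, edgeR adjusted p = 0.0216). The call was lost without Wnt3a replicate 1 (log2 -0.549, edgeR adjusted p = 0.0933), inhibitor replicate 2 (-0.682, 0.0709) or inhibitor replicate 3 (-0.57, 0.0766). The log2 fold change was 0.56 for Wnt3a against vehicle (SE 0.228, edgeR adjusted p = 0.59) and -0.18 for inhibitor against vehicle (SE 0.231, edgeR adjusted p = 0.543). With Wnt3a replicate 1 and inhibitor replicate 1 both left out, an alternative chosen after seeing the data, the latter was -0.445 (edgeR adjusted p = 0.0462).

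TGFBR3, the co-receptor that presents TGFB2, was at 9.30, 8.19 and 7.65 CPM in vehicle, 8.24, 8.06 and 7.58 CPM with Wnt3a and 17.0, 10.4 and 10.3 CPM with the inhibitor. Inhibitor libraries were above the others in CPM, replicate 1 far above its partners, but in TPM the groups overlapped (2.15 to 3.33 with the inhibitor and 2.01 to 2.54 without). TGFBR3 rose with the inhibitor against Wnt3a (log2 0.65, SE 0.203, edgeR adjusted p = 0.0217) and against vehicle (log2 0.58, SE 0.203, edgeR adjusted p = 0.0368). The first call was kept under 13 of 20 alternatives and the second under 9 of 20. Without inhibitor replicate 1 the changes were 0.37 and 0.304 (edgeR adjusted p = 0.0505 and 0.0991), with library totals alone 0.408 and 0.358 (0.135 and 0.189), and with limma-trend on log2(TPM + 1) 0.239 and 0.252 (0.232 and 0.215). The first call was also lost without Wnt3a replicate 2 or 3, and the second without any 1 vehicle library, Wnt3a replicate 1 or Wnt3a replicate 2, with edgeR adjusted p from 0.0502 to 0.114. For Wnt3a against vehicle the log2 fold change was -0.075 (SE 0.203, edgeR adjusted p = 0.965).

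ENG, a co-receptor that also binds BMP ligands, was at 56.7, 70.4 and 62.8 CPM in vehicle, 52.4, 58.2 and 59.0 CPM with Wnt3a and 36.1, 39.1 and 50.7 CPM with the inhibitor. Inhibitor libraries lay below all others, while vehicle and Wnt3a overlapped. ENG fell with the inhibitor against vehicle by 0.59 on the log2 scale (SE 0.137, 1.51-fold lower, edgeR adjusted p = 0.00506), a call kept under all 20 alternatives. Against Wnt3a it fell by 0.43 (SE 0.137, edgeR adjusted p = 0.0242). This second call was lost without Wnt3a replicate 2, Wnt3a replicate 3, inhibitor replicate 1, inhibitor replicate 2 or both treated groups' replicate 1, with edgeR adjusted p from 0.0617 to 0.0839. For Wnt3a against vehicle the log2 fold change was -0.16 (SE 0.136, edgeR adjusted p = 0.875). The 10 other endothelial markers summed to 3.66 to 4.56 CPM without the inhibitor and 2.27 to 3.38 CPM with it. Of these, 7 stayed at or below 0.246 CPM in every library, among them the cadherin CDH5, VWF, KDR and TEK. The adhesion molecule PECAM1 averaged 1.81, 1.82 and 1.76 CPM in vehicle, Wnt3a and inhibitor libraries, and the junction protein CLDN5 averaged 0.945, 0.535 and 0.466 CPM. ERG, a transcription factor of endothelial cells, averaged 0.97, 1.54 and 0.161 CPM and, like ENG, fell with the inhibitor (log2 -3.26 against Wnt3a, edgeR adjusted p = 0.000305, and -2.60 against vehicle, edgeR adjusted p = 0.00124). The part of endothelial cells in the level of ENG was not tested. ENG shares 313 of its 3935 exon bases with the antisense gene AL162586.1, which had 7.16 to 74.66 counts per library beside 951.4 to 2906.48 for ENG.

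LRRC32 had 3, 10 and 2 counts in vehicle, 10, 7 and 8 in Wnt3a libraries and 3, 1 and 10 with the inhibitor. It was the 1 gene of the 8 below the filter on low counts, and no comparison was made for it. In the cells that normally carry it FOXP3 marks regulatory T cells, and PF4, PPBP, GP9 and ITGA2B mark platelets. FOXP3 was at or below 0.341 CPM, and PF4, PPBP and GP9 had no count in any library. ITGA2B averaged 1.18, 1.06 and 1.71 CPM in the 3 groups and did not pass in any comparison. The 14 leukocyte and platelet markers summed to 3.40 to 5.14 CPM without the inhibitor and 7.10 to 11.3 CPM with it, most of it CD68, a lysosomal protein of macrophages, at 6.45 CPM on average with the inhibitor. The part of leukocytes or platelets in these values was not tested.

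Among the 7 genes tested, 5 passed for inhibitor against Wnt3a, where 50.4% of all genes did, and 4 for inhibitor against vehicle, where 49.7% did. TGFB2 and TGFBR3 were higher in both, TGFBR1 and ENG lower in both, and TGFBR2 lower against Wnt3a. Both calls of TGFB2 were kept under all 21 alternatives. Of 20 alternatives, TGFBR3 was kept under 13 against Wnt3a and 9 against vehicle, TGFBR1 under 20 and 17, and ENG under 15 and 20. The call of TGFBR2 was kept under 17 of 20. Groups did not overlap in CPM for 3 genes in Wnt3a against vehicle (TGFB2, TGFBR1 and TGFBR2), where 17.5% of all genes did not, for 5 in inhibitor against Wnt3a (58.1%) and for 4 in inhibitor against vehicle (58.4%). The comparisons share libraries, so their calls are not independent of one another.

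**Figure D4:**
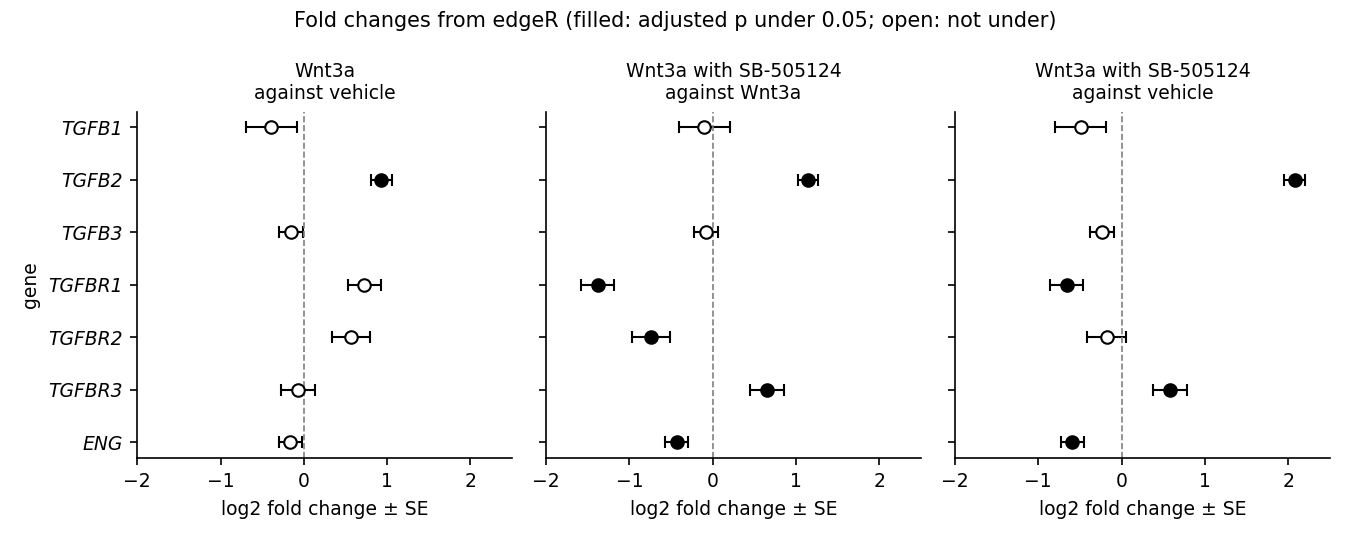
Log2 fold change of 7 genes in the 3 comparisons, as edgeR estimates with bars of 1 SE, filled where the adjusted p is under 0.05. TGFB2 is right of 0 in all 3 panels (0.93, 1.145 and 2.08), and TGFBR1 changes side from 0.73 with Wnt3a to -1.38 with the inhibitor against Wnt3a.

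Ratios within a library, which do not depend on library scaling, set the receptors against TGFBR2. TGFBR1 was 1.19, 1.23 and 1.31 times TGFBR2 in vehicle, 1.16, 1.54 and 1.52 times with Wnt3a and 0.887, 0.754 and 1.03 times with the inhibitor, in TPM. TGFBR3 was 0.822, 0.895 and 0.742 times TGFBR2 in vehicle, 0.396, 0.728 and 0.545 times with Wnt3a and 1.30, 1.68 and 1.45 times with the inhibitor. The TGFBR3 ratio was thus lowest with Wnt3a and highest with the inhibitor without overlap, and the TGFBR1 ratio was lowest with the inhibitor. The mean log2 ratio of TGFBR3 to TGFBR2 was -0.29 ± 0.135, -0.89 ± 0.44 and 0.55 ± 0.188 in the 3 groups, and that of TGFBR1 to TGFBR2 was 0.31 ± 0.0714, 0.48 ± 0.23 and -0.18 ± 0.223. Each non-overlapping pair had an exact 2-sided permutation p of 0.1, the smallest possible here (0.15 after adjustment over 9 tests). ENG was 10.4 to 13.3 times TGFBR2 in vehicle, 5.45 to 9.16 times with Wnt3a and 5.94 to 14.5 times with the inhibitor, so that only vehicle and Wnt3a did not overlap.

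**Figure D5:**
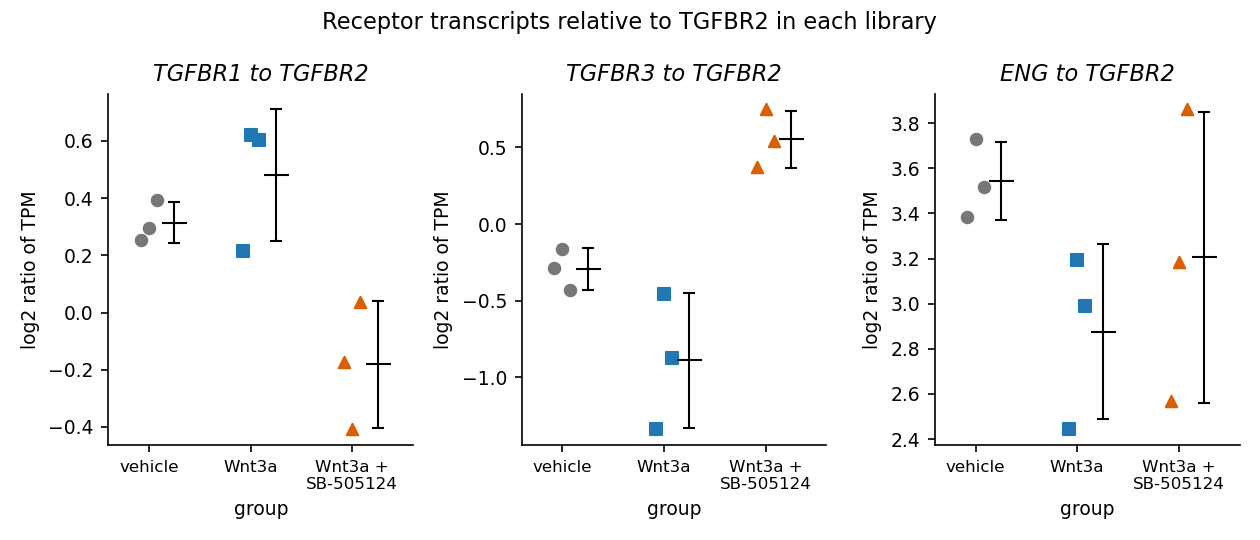
Log2 ratio of TGFBR1, TGFBR3 and ENG to TGFBR2 in TPM, 1 point per library, with the mean and SD of each group beside the points. The TGFBR3 ratio is highest in the inhibitor group (0.55 on average) and the TGFBR1 ratio lowest there (-0.18). The ENG ratio of inhibitor libraries overlaps both other groups.

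The nearest genes in pattern were found by the mean absolute difference of centred log2 CPM over the 9 libraries, among 9948 genes of at least 10 CPM on average, as a description with no test. For TGFB2 they were CYTH3 (difference 0.116), GNAI1 (0.141) and TPD52L1 (0.158). CYTH3, which activates ARF GTPases, averaged 36.5, 76.5 and 171.8 CPM in vehicle, Wnt3a and inhibitor libraries. For TGFBR1 they were C9orf3 (0.107), GALNT1 (0.112) and HSPA2 (0.119), and GALNT1, an enzyme that starts O-linked glycans, averaged 21.3, 32.9 and 13.4 CPM. TGFB1 was nearest to PLEC (0.094), CYBA (0.096) and CACNA1H (0.109), TGFB3 to DHRS1 (0.06), C19orf12 (0.062) and RP11-342K6.1 (0.067), and ENG to DEXI (0.047), PTMS (0.052) and MPND (0.054). TGFBR2 and TGFBR3 averaged under 10 CPM and were not matched.

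Of 25 genes tested that hold ligand latent or release it, 3 rose and 10 fell with the inhibitor against Wnt3a, with a median log2 change of -0.43 beside -0.057 for all genes, and 3 rose and 9 fell against vehicle (median -0.3 beside -0.04). Of all genes tested, 24.5% rose and 25.9% fell in the first comparison and 25% rose and 24.8% fell in the second, so the number of genes that changed was near the background in both. FBN1, the microfibril protein that latent complexes bind, was at 189.4 ± 9.80 CPM in vehicle, 275.8 ± 57.9 with Wnt3a and 42.7 ± 3.81 with the inhibitor (log2 -2.69 against Wnt3a, SE 0.15, edgeR adjusted p = 2.83e-06). LTBP1, which binds the latent ligand to matrix, fell by 1.41 (SE 0.203, edgeR adjusted p = 0.000318), and the integrin gene ITGB5 fell by 1.06 (SE 0.108, edgeR adjusted p = 4.2e-05). The membrane protease gene MMP14 rose by 1.11 (SE 0.079, edgeR adjusted p = 6.5e-06). With Wnt3a against vehicle, where 0.419% of all genes passed, 2 rose and 0 fell (median 0.14 beside 0.011), and 0 passed with limma-trend on log2(TPM + 1). ITGB8, whose integrin releases latent ligand, rose from 11.5 ± 1.64 to 24.9 ± 1.48 CPM (edgeR adjusted p = 0.0286). It stood at 50.2 ± 12.5 CPM with the inhibitor. THBS1, an activator of latent ligand, rose from 2.42 ± 0.925 to 12.9 ± 1.63 CPM (edgeR adjusted p = 0.0221). It stood at 4.34 ± 2.23 CPM with the inhibitor.

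Of 14 other receptors and co-receptors of the superfamily tested, 6 rose and 1 fell with the inhibitor against Wnt3a (median 0.37 beside -0.057 for all genes), and 6 rose and 0 fell against vehicle (median 0.43 beside -0.04). The number that passed was near the background, 50.4% of all genes in the first comparison and 49.7% in the second. By direction, 24.5% of all genes rose and 25.9% fell in the first, and 25% rose and 24.8% fell in the second. With library totals alone these counts were 3 and 1, and 5 and 1, and without Wnt3a replicate 1 and inhibitor replicate 1 they were 3 and 0, and 6 and 0. ACVR1B, another kinase that SB-505124 blocks, was at 45.6 ± 2.37, 42.2 ± 1.35 and 65.0 ± 2.88 CPM in the 3 groups (log2 0.62 against Wnt3a, SE 0.085, edgeR adjusted p = 0.000227). ACVR1, a type I receptor for BMP ligands, rose by 0.75 (SE 0.112, edgeR adjusted p = 0.000391). CD109, a surface protein that binds TGF-β, rose by 0.55 (SE 0.166, edgeR adjusted p = 0.0185), and NRP1, a neuropilin, rose by 1.501 from 1.24 ± 0.62 CPM (SE 0.418, edgeR adjusted p = 0.013). With Wnt3a against vehicle 1 rose and 0 fell, while 0.397% of all genes tested rose and 0.0224% fell. The 1 that rose was NRP2, another neuropilin (edgeR adjusted p = 0.0183). NRP2 was at 0.662 ± 0.312 CPM in vehicle and at 3.40 ± 0.907 CPM with Wnt3a. Without Wnt3a replicate 1 and inhibitor replicate 1, 0 of the 14 passed in this comparison.

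Of 32 intracellular transducers and regulators, 15 rose and 4 fell for inhibitor against Wnt3a (median 0.24 beside -0.057 for all genes), where 24.5% of all genes rose and 25.9% fell. Against vehicle 17 rose and 3 fell (median 0.29 beside -0.04), where 25% of all genes rose and 24.8% fell. With library totals alone the direction turned to 8 risen and 12 fallen against Wnt3a (median 0) and stood at 11 and 7 against vehicle (median 0.07). SMAD4, the shared partner of the receptor-phosphorylated SMADs, was at 93.2 ± 4.78, 99.3 ± 2.09 and 168.4 ± 2.36 CPM (log2 0.76 against Wnt3a, SE 0.077, edgeR adjusted p = 4.11e-05). TAB2, an adaptor of the kinase TAK1, rose by 1.04 (SE 0.08, edgeR adjusted p = 9.28e-06). PPP1R15A, a phosphatase subunit also induced by stress, rose by 3.57 (SE 0.125, edgeR adjusted p = 3.82e-07), and PMEPA1, which restrains SMAD signalling and is itself a target of it, fell by 1.79 (SE 0.119, edgeR adjusted p = 4.75e-06). With Wnt3a against vehicle 1 rose and 0 fell (median 0.03 beside 0.011 for all genes), where 0.397% of all genes rose and 0.0224% fell. The gene was DAB2, an endocytic adaptor, which rose from 30.2 ± 3.39 to 54.96 ± 3.77 CPM (edgeR adjusted p = 0.00593).

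Of 19 genes tested that are known to respond to TGF-β, 5 rose and 7 fell for inhibitor against Wnt3a (median -0.27 beside -0.057 for all genes), where 24.5% of all genes rose and 25.9% fell. Against vehicle 5 rose and 6 fell (median 0.09 beside -0.04), where 25% rose and 24.8% fell. COL1A1, a chain of type I collagen, was at 27.3 ± 13.3, 78.4 ± 33.1 and 2.35 ± 0.633 CPM (log2 -5.07 against Wnt3a, SE 0.457, edgeR adjusted p = 2.18e-05). LDLRAD4, a relative of PMEPA1 that restrains SMAD signalling, fell by 1.90 (SE 0.103, edgeR adjusted p = 2.55e-06), and PMEPA1 fell as given above. CDKN1A, a cell cycle inhibitor that p53 also induces, rose by 3.07 (SE 0.318, edgeR adjusted p = 4.75e-05). With Wnt3a against vehicle 1 rose and 0 fell (median 0.24 beside 0.011 for all genes), where 0.397% of all genes rose and 0.0224% fell. The gene was TGFBI, a secreted matrix protein. It was at 79.1 ± 16.9 CPM in vehicle, 322 ± 79.8 with Wnt3a and 104.9 ± 6.55 with the inhibitor (log2 2.03, SE 0.198, edgeR adjusted p = 0.00286 for Wnt3a against vehicle). Fibroblast markers, several of which are themselves matrix genes, were present: 8 or 9 of 10 exceeded 1 CPM in each library, and they summed to 852.2 to 1038 CPM in vehicle, 920.3 to 1433 with Wnt3a and 730.1 to 788.4 with the inhibitor, most of it ACTA2 and THY1. COL6A3, a chain of type VI collagen, averaged 2.18, 29.2 and 1.43 CPM and passed for Wnt3a against vehicle (log2 3.74, edgeR adjusted p = 0.00115) and for inhibitor against Wnt3a (-4.36, edgeR adjusted p = 8.97e-06). POSTN, a matrix protein, averaged 5.31, 19.5 and 2.62 CPM and passed only for inhibitor against Wnt3a (-2.90, edgeR adjusted p = 0.00151). Both, like COL1A1 and TGFBI, averaged highest with Wnt3a. LUM, a proteoglycan of collagen matrix, averaged 14.9, 27.0 and 35 CPM, highest with the inhibitor, and passed in all 3 comparisons (edgeR adjusted p = 0.0226, 0.0362 and 5.58e-05 for Wnt3a against vehicle, inhibitor against Wnt3a and inhibitor against vehicle). The part of fibroblast-like cells in these values was not tested.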

How the data were processed

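Per the submitters' processing notes, the authors worked on the build hg38 with STAR 2.5.2a and RSEM 1.2.31, beside CASAVA 1.8.2 and Trimmomatic 0.36. The library kit was a stranded one, per the labels' protocols. Which annotation release was used, and whether counting used strand, is not given in the sources used here. The 9 deposited gene tables hold RSEM's expected counts, in which ambiguous reads are divided between genes, and TPM made by the authors. Per the file headers they also hold FPKM, which was not used, and a length and effective length per gene. Gene IDs were matched to GENCODE 29 with the version ignored (57895 of 58233), and promoter sequence comes from the RefSeq table on GRCh38.p14, in which 7 of the 8 genes were used for motif counts.

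Expected counts were rounded to whole numbers and filtered with filterByExpr, which left 17880 genes. edgeR 4.0.16 in R 4.3.3 fitted 1 quasi-likelihood model with TMM scaling to all 9 libraries (common biological coefficient of variation 21.5%). Each F test was 2-sided, with Benjamini-Hochberg adjustment over all genes tested and a threshold of 0.05. The SE is the log2 fold change divided by the square root of F. Ratios and ligand shares used TPM and exact permutation tests. All genes of the 8 are named. Of 4 pathway lists the text names up to 4 genes with the smallest adjusted p for inhibitor against Wnt3a and all that passed for Wnt3a against vehicle. The genes and lists were chosen with earlier results of these data known. Alternatives were RLE factors, library totals alone, other filters, DESeq2 1.42.0, limma-trend (limma 3.58.1) on log2(TPM + 1) and log2(TPM + 0.1), the replicate number as a block, fits of only the 2 groups compared, effective length as an offset, and leaving out each library.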

Additional observations from a re-analysis of the deposited data

How the results depend on the processing

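With Wnt3a against vehicle, 75 genes passed in all, 299 with DESeq2 and 259 with every gene of at least 1 count, and leaving out 1 library gave 23 (without vehicle replicate 3) to 159 (without inhibitor replicate 1). Of the 7 genes tested here 1 passed, 2 with DESeq2, 2 with every gene of at least 1 count and 2 with only the 2 groups compared, and 0 to 2 with 1 library left out. For inhibitor against vehicle 4 passed, and 2 to 4 with 1 library left out. For inhibitor against Wnt3a 5 passed, 3 to 5 with 1 library left out, and 3 without Wnt3a replicate 1 and inhibitor replicate 1 together, an alternative chosen after seeing the data. The causes of these differences were not tested. Some small changes turned sign. TGFB1 for inhibitor against Wnt3a (-0.099) became 0.147 without Wnt3a replicate 3, 0.203 without inhibitor replicate 1 and 0.031 without both replicates 1. It stood at -0.392 without inhibitor replicate 3, and the lowest of all 20 alternatives was -0.534. TGFB3 in that comparison (-0.08) became 0.049 without inhibitor replicate 2. It stood at -0.262 without both replicates 1, and the lowest of all 20 alternatives was -0.522. TGFBR3 for Wnt3a against vehicle (-0.075) became 0.018 with log2(TPM + 0.1), 0.014 with log2(TPM + 1) and 0.013 without vehicle replicate 1 (lowest -0.136, without vehicle replicate 3).

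With the replicate number as a block, 79, 9039 and 9166 genes passed for Wnt3a against vehicle, inhibitor against vehicle and inhibitor against Wnt3a, and no call of the 7 genes changed. Same-numbered libraries correlated at -0.237 to 0.551 in their deviations from the group means, and different-numbered ones at -0.6 to 0.41. The highest correlations, 0.551 and 0.501, were between same-numbered libraries, but not every library correlated best with its own number. The labels do not say what the numbers mark, and they were not taken to pair libraries.

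Low depth limits LRRC32, with 1 to 10 counts per library, and leaves TGFBR2 and TGFBR3 at 174 to 615 counts. With 3 libraries per group the smallest exact p of a ratio or share is 0.1.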
